A study of Mus musculus with 20 samples.

Results

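Genes of chemokines and of chemokine receptors were followed by bulk RNA sequencing in mice, in tumors of the kidney (10 libraries) and normal kidney tissue (10 libraries). Members were the protein-coding genes with the symbol Ccl, Cxcl, Ccr or Cxcr and a number, together with Cx3cl1, Cx3cr1 and Ackr1 to Ackr4. Reported here are 64 of the 54532 genes in the count table, 43 for ligands and 21 for receptors, under 58 symbols, since Ccl19, Ccl21a, Ccl21b, Ccl21c and Ccl27a each have more than 1 entry. A mean of at least 10 counts over the 20 libraries was reached by 35 members (25 ligands and 10 receptors), and values are given for these. A filter on low counts kept 29 of the 35 (21 ligands and 8 receptors) and no other member.

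In the study's Cre-less AAV model, adeno-associated virus (AAV) that lacks Cre and carries sgRNAs against Vhl, Pbrm1, Keap1 and Tsc1 was injected into the kidney of adult C57BL/6 mice of both sexes with the genotype LSL-Cas9/+; Pax8 Cre/+. Cre under the Pax8 promoter turns on Cas9 in Pax8-expressing cells, which in the kidney are epithelial, so editing is meant to be limited to those cells and their descendants. The 10 tumors were from 10 mice, and the normal kidney samples were from normal regions of kidneys of the same mice, so both groups share strain, genotype and virus, and no untreated mouse is among them. The only comparison of the design asks how expression differs between tumor and normal kidney. The age at collection was not used here.

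Tumor libraries held 18447394 to 24902973 counts, and those of normal kidneys 14737516 to 26679704. CPM are counts scaled to the library's total and its TMM normalization factor, and at this depth 1 CPM is about 20 counts, so the lowest values given here rest on a few reads. Pax8 was present in every library, with a median of 159.7 CPM in tumors and 113 in normal kidneys. Of 12 kidney epithelium markers, all tested, 7 were lower in tumors and 0 higher by edgeR's quasi-likelihood test, where 23.8% of all genes tested were lower and 23.6% higher. Umod, made by the thick ascending limb, had a median of 4219 CPM in normal kidneys and 0.736 in tumors, and Aqp2 of the collecting duct had medians of 258 and 0. Among the markers not called, Lrp2 had medians of 2403 and 2773, and Cdh16 had 889 and 762. In bulk tissue, fewer cells of a type and less RNA per cell cannot be told apart, and this holds for every difference given here.

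Chemokines are small secreted proteins that bind G protein-coupled receptors and steer the migration of leukocytes, with some also acting on endothelial and epithelial cells. CXC ligands of the ELR class act through Cxcr2 and draw neutrophils, interferon-induced CXC ligands act through Cxcr3 on T and NK cells, and CC ligands act through CC receptors on monocytes, eosinophils, lymphocytes and dendritic cells. Atypical receptors bind chemokines without G protein signaling and take them up, and in the kidney both tubule epithelium and stroma are known sources of chemokines.

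Several libraries stood apart and are described before the results. In tumor 7 the members took 0.279% of all counts, against 0.0313 to 0.0605% in the other 9 tumors. Its ligand genes summed to 2331 CPM, against 186 to 432 CPM in the other tumors. Its receptor sum of 200 CPM was within the 129 to 229 CPM of the others, but the kinds of receptor differed. Its CC receptors, led by Ccr1, summed to 83.6 CPM (others 7.61 to 17.1), and its CXC and CX3C receptors to 40.9 (others 10.9 to 34.7). Its atypical receptors, led by Ackr3, summed to 75.5 CPM (others 88.1 to 207). Tumor 7 was the highest tumor for 21 of the 35 members with a mean of at least 10 counts (16 of 25 ligands and 5 of 10 receptors), and the highest of all 20 libraries for 17. It was the lowest tumor for Ackr3, Cxcl16, Cx3cr1 and Cxcl10. Tumor 9 was second among tumors for 13 of those 21.

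Markers of other cells also moved in tumor 7. The 8 fibroblast and pericyte markers summed to 6783 CPM in tumor 7, with Col3a1 the most abundant at 4242, and to 361 to 1172 CPM in the other tumors. The 12 macrophage markers summed to 2028 CPM, led by C1qb at 315 (other tumors 360.5 to 1060). The 12 neutrophil markers summed to 679 CPM, led by Lcn2 at 165 and S100a9 at 151, with Camp at 0 (other tumors 5.30 to 71.5). Kidney epithelium markers summed to 1046 CPM in tumor 7, led by Lrp2 and with Slc12a1 at 0, and to 2925 to 8143 in the other tumors. The T cell sum was 50.9 CPM, nearly all of it Thy1 at 47.2, which fibroblasts also express, and Cd3d, Cd3e, Cd3g, Cd8a and Cd8b1 were at 0. Tumor 7 was also the highest tumor for the adipocyte sum of 397 CPM (others 5.31 to 162) and the B and plasma cell sum of 368 CPM (others 9.92 to 210.2), the latter led by Ighm at 251 and with Cd79a at 0.299. Its lymphatic endothelium sum of 154 CPM was mostly Lyve1 at 130.4, which macrophages also express, with Prox1 at 0.341 (other tumors 19.9 to 90.5 for the sum). Its dendritic cell sum of 109 CPM was mostly Fscn1 at 95.6, which fibroblasts and endothelium also express, with Flt3 at 0.256 and Clec9a at 0.470 (other tumors 21.3 to 52.2 for the sum). Tumor 9 was the highest tumor for the sums of blood endothelium (1106 CPM) and of mast cell and eosinophil markers (54.2 CPM). It was second to tumor 7 for macrophage (1060), fibroblast and pericyte (1172), B and plasma cell (210.2) and lymphatic endothelium (90.5) markers. The same held for its adipocyte (162), dendritic cell (52.2) and T cell (33.1) sums. The part of these cells in the chemokine values of tumors 7 and 9 was not tested.

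Among normal kidneys, libraries 5, 7 and 8 had sums of 39910, 55007 and 29704 CPM over 9 tubule injury markers, led by Spp1, against 2542 to 5058 in the other 7. Their kidney epithelium sums were 7784, 5642 and 9975 CPM, below the 13674 to 16957 of the others. Neutrophil marker sums were 2567, 3350 and 1795 CPM in these libraries, led by Lcn2, which injured tubules also express. Normal kidney 9 had a neutrophil sum of 256 CPM, and the remaining normal kidneys had 13.4 to 61.6. Normal kidney 9 had the lowest normalization factor of the 20 libraries, 0.749, a B and plasma cell marker sum of 2315 CPM led by Igkc (other normal kidneys 43.7 to 833), and a ligand sum of 699.8 CPM (others 287 to 484). It was the highest of all libraries for Cxcl12, Ccl27a, Ccl25, Ccl5, Cxcr3 and Ccl21a, and with library totals in place of that factor only for Ccl27a and Ccl21a. The fits of tested members are therefore given with and without tumor 7, and without the normal kidneys named here where that ends a call or turns a direction.

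**Figure D1:**
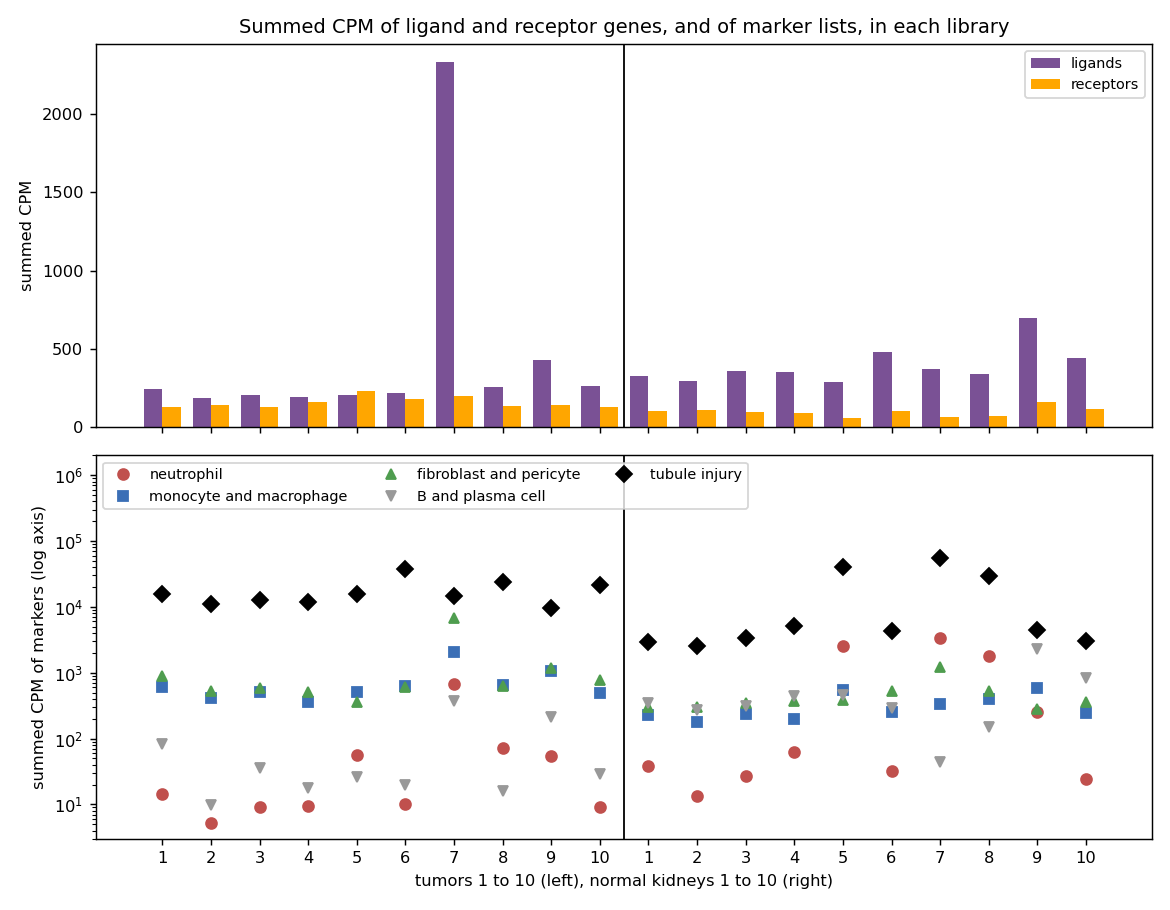
Upper panel, CPM summed over the ligand genes and over the receptor genes in each of the 20 libraries (bars); lower panel, CPM summed over 5 marker lists on a log axis (points). Tumor 7 has a ligand sum of 2331 CPM, and normal kidneys 5, 7 and 8 have the highest tubule injury sums among normal kidneys.

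Fitted with all 20 libraries in edgeR and adjusted over 15354 genes by the method of Benjamini and Hochberg (adjusted p under 0.05), the quasi-likelihood test placed 12 of the 29 tested members higher in tumors, a share of 41.4%, where 23.6% of all genes tested were higher. It placed 7 lower, a share of 24.1%, where 23.8% of all genes were lower. Without tumor 7, 3 members were higher (10.3%; 23.6% of 15509 genes) and 6 lower (20.7%; 27.1% of genes). The share of members called higher is thus above that of all genes with tumor 7 and below it without. The median log2 fold change of the 29 members was 0.73 with tumor 7 and 0.25 without, against -0.02 and -0.05 over all genes tested. Higher in both fits were Ackr3, Cxcl16 and Cxcl10, and lower in both were Cxcl12, Cx3cl1, Ccl28, Ccl27a and Ccl25.

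Higher only with all 20 libraries were Ccl6, Ccl9, Cxcl2, Ccr1, Cxcr4, Ccl8, Ccl11, Ccl7 and Cxcl5. For 8 of these 9 members tumor 7 had the highest value of the tumors, the exception being Cxcr4, which was highest in tumor 9. Every tumor lay below every normal kidney for 2 members, Cx3cl1 and Ccl25, a separation seen in 4.74% of all genes tested, and above for 0 members (5.87% of genes). Without tumor 7, Cxcl16 was above in every tumor (8.49% of genes), and Cxcl12, Cx3cl1, Cxcl14 and Ccl25 were below (7.49% of genes). By role, ligands had 9 higher and 5 lower of 21 tested with all libraries, and 2 higher and 6 lower without tumor 7. Receptors had 3 higher and 2 lower of 8, and 1 higher and 0 lower without tumor 7.

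**Figure D2:**
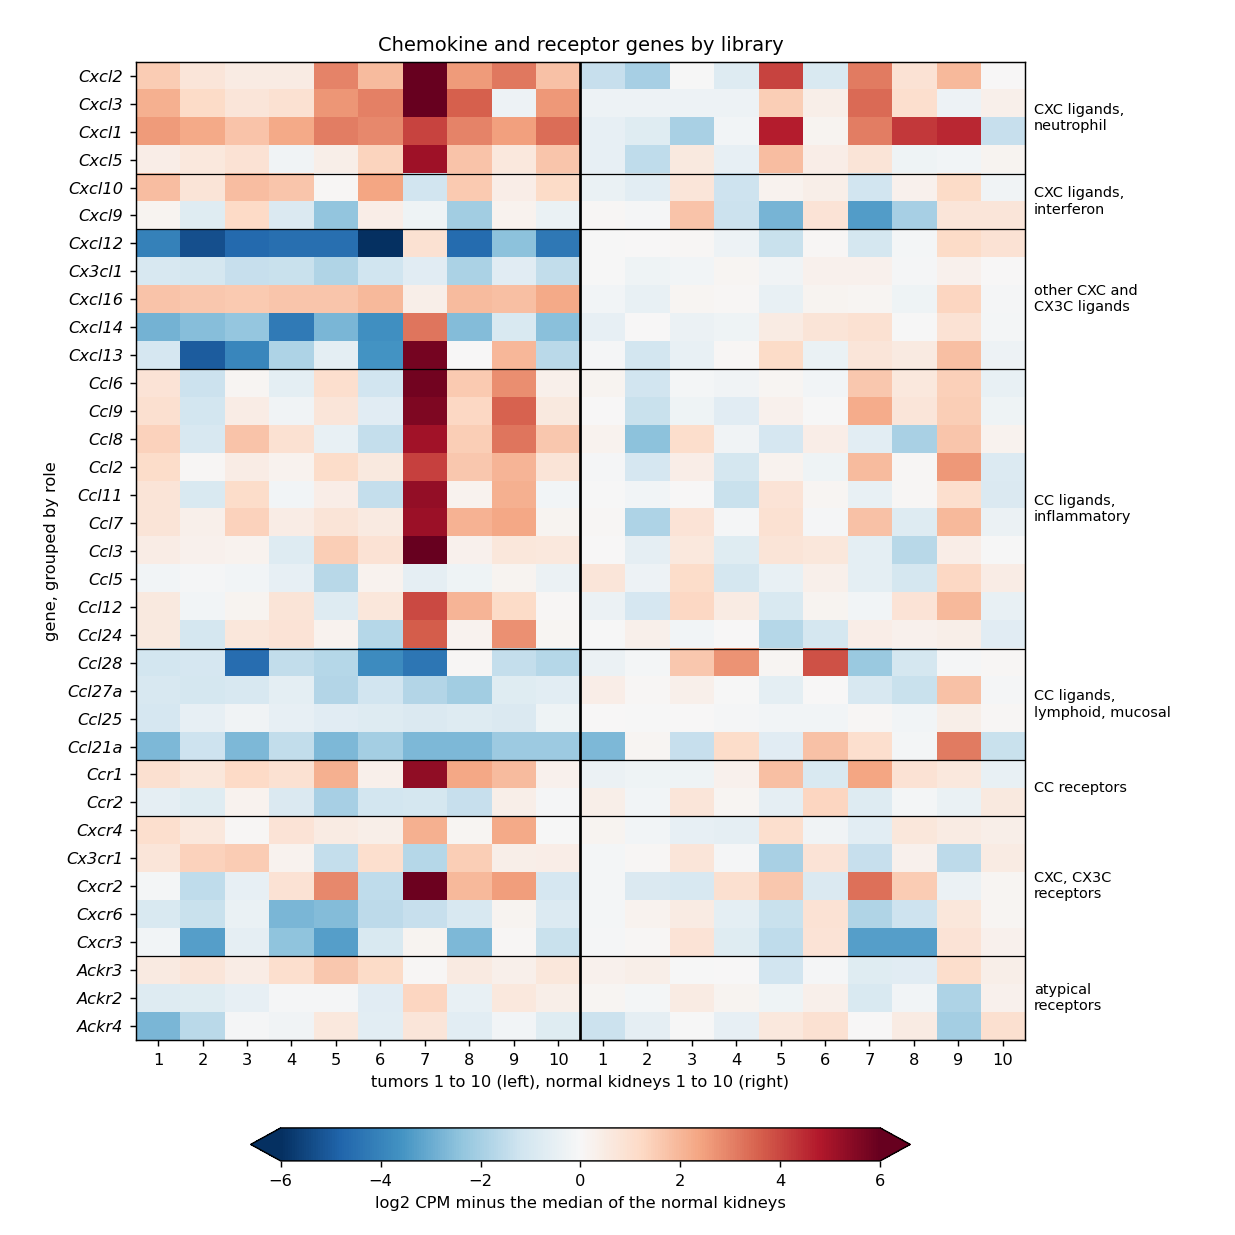
Log2 CPM (prior count 2) of the 35 members in each of the 20 libraries, minus the median of the normal kidneys for that gene, with genes grouped by role and tumors to the left of the line. Tumor 7 is the highest of the 20 libraries for 17 of the 35 genes.

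**Figure D3:**
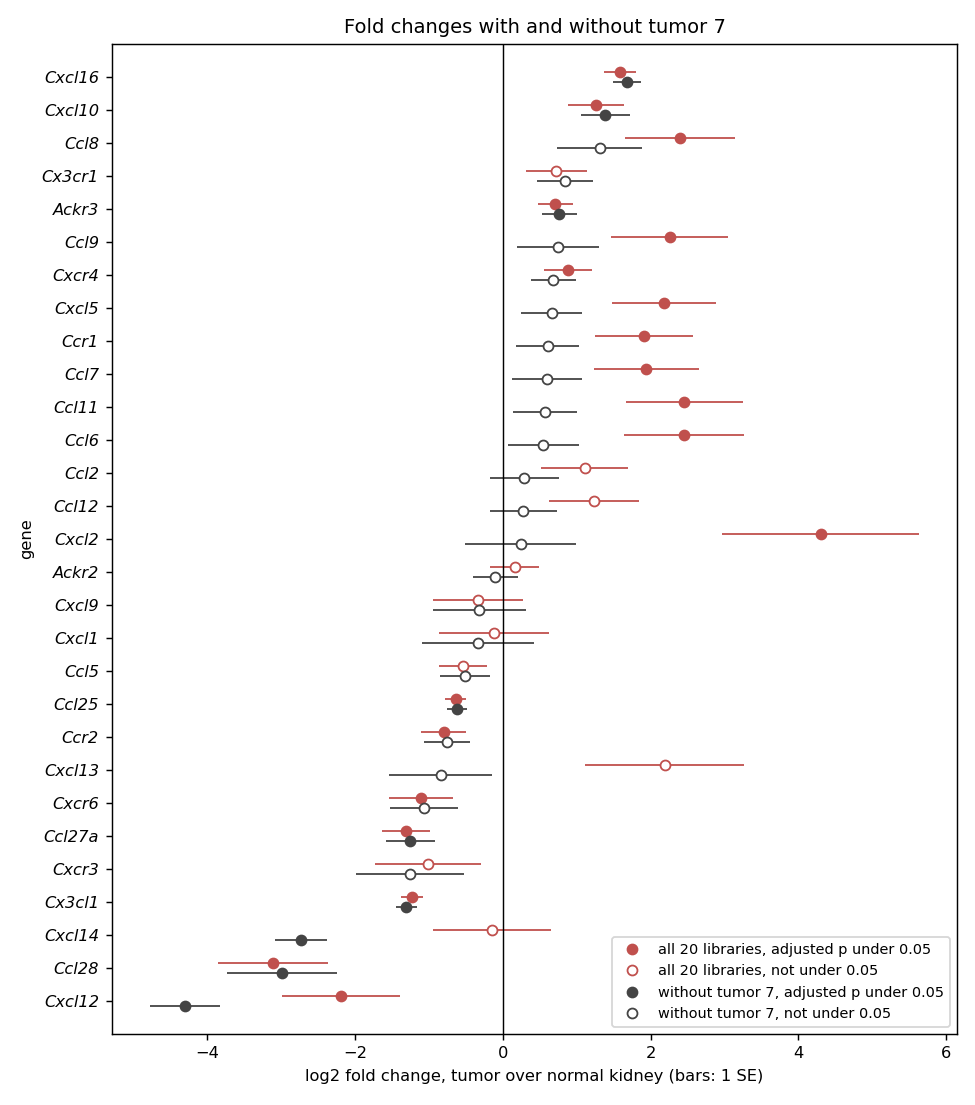
Log2 fold change between tumor and normal kidney (points; bars are 1 SE) of the 29 tested members with all 20 libraries and without tumor 7, filled where the adjusted p was under 0.05. Cxcl2 moves from 4.30 to 0.25 and Cxcl14 from -0.14 to -2.73 when tumor 7 is left out, while Cx3cl1, Cxcl16 and Cxcl10 hardly move.

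The ligands made as membrane-anchored proteins went in opposite directions. Cxcl16 (ENSMUSG00000018920, chr11:70453983-70459984, minus strand), a transmembrane ligand of Cxcr6 that is also a scavenger receptor for oxidized lipoprotein, lay between 39.2 and 149 CPM in tumors (median 98.9) and between 22.6 and 76.0 in normal kidneys (median 30.8). The 9 tumors other than tumor 7 were all above every normal kidney, and tumor 7, at 39.2 CPM, was below normal kidney 9 alone, which had 76.0. It rose by a log2 fold change of 1.59 ± 0.22 (SE, adjusted p = 4.45e-06), and 1.68 ± 0.19 (adjusted p = 2.74e-07) without tumor 7. Cxcl16 shares 552 exon bases with Zmynd15 on the opposite strand, and the use of strand in counting is not given in the sources used here. Zmynd15 had a mean of 109 counts against 1352 for Cxcl16, and a log2 fold change of 0.62 (adjusted p = 0.0399). Cxcr6, the receptor of Cxcl16 on resident T and NKT cells, lay between 0.0861 and 1.31 CPM in tumors (median 0.476) and between 0.256 and 2.19 in normal kidneys (median 1.16). Its values were low, 9 of 10 tumors were below the median of the normal kidneys, and the groups overlapped. The log2 fold change of Cxcr6 was -1.11 ± 0.44 (SE, adjusted p = 0.0425), a call lost in 14 of the 20 fits that leave out 1 library, with -1.06 ± 0.46 (adjusted p = 0.0578) without tumor 7. The call was also lost without normal kidney 9 (-0.99).

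Cx3cl1 (ENSMUSG00000031778, chr8:94772009-94782427, plus strand), or fractalkine, an adhesive membrane ligand that can be shed, lay between 25.9 and 60.7 CPM in tumors (median 39.7) and between 79.1 and 116 in normal kidneys (median 96.1). All 10 tumors were below all 10 normal kidneys, with or without the libraries that stood apart. It fell in tumors, with a log2 fold change of -1.23 ± 0.15 (SE, adjusted p = 7.11e-07), and -1.30 ± 0.15 (adjusted p = 2.26e-07) without tumor 7. Cx3cr1, its receptor on monocytes and tissue macrophages, lay between 1.66 and 16.6 CPM in tumors (median 8.51) and between 1.44 and 10.1 in normal kidneys (median 5.75). With all libraries the log2 fold change of Cx3cr1 was 0.73 ± 0.41 (SE, adjusted p = 0.153), and 0.85 ± 0.38 (adjusted p = 0.0669) without tumor 7, and it was called higher only with the replicate number as a block (0.67, adjusted p = 0.0206). Of the tumors, 8 of 10 were above the median of the normal kidneys, with tumor 7 the lowest tumor at 1.66 CPM.

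Cxcl12 (ENSMUSG00000061353, chr6:117168535-117181367, plus strand) is a constitutive ligand of Cxcr4 and Ackr3, made by stromal cells and endothelium, that retains leukocytes and stem cells. It lay between 0.858 and 248 CPM in tumors (median 5.70) and between 53.3 and 298 in normal kidneys (median 133). The tumors other than tumor 7 had between 0.858 and 24.3 CPM, all below the lowest normal kidney, while tumor 7 had 248 CPM, above every normal kidney except normal kidney 9. In tumors Cxcl12 fell, and the log2 fold change of Cxcl12 was -2.19 ± 0.80 (SE, adjusted p = 0.0284) with all libraries and -4.29 ± 0.47 (adjusted p = 2.01e-07) without tumor 7, and the call was lost only without normal kidney 9 (-1.97, adjusted p = 0.0520). Cxcl14, a ligand made by epithelium and fibroblasts that attracts monocytes and dendritic cells, lay between 1.21 and 226 CPM in tumors (median 4.04) and between 17.2 and 46.1 in normal kidneys (median 24.4). As for Cxcl12, 9 tumors were below every normal kidney, and here tumor 7 was above all of them at 226 CPM. The log2 fold change of Cxcl14 was -0.14 ± 0.80 (SE, adjusted p = 0.902) with tumor 7 and -2.73 ± 0.35 (adjusted p = 1.61e-06) without it. Fitted on all libraries, DESeq2 also called the fall (-2.42, adjusted p = 8.09e-10). So did limma-voom with sample quality weights (-2.77, adjusted p = 2.05e-07) and the replicate number as a block (-2.45, adjusted p = 0.00185). At its default settings DESeq2 can replace outlying counts, and quality weights can give a library less weight. Neither of these 2 fits is therefore sure to keep tumor 7 in full. Of the 8 fibroblast and pericyte markers, Pdgfra, Dcn and Pdgfrb were lower without tumor 7 (-3.07, -1.19 and -0.87, adjusted p = 1.20e-07, 0.00506 and 0.00761). Cspg4 was higher (3.69, adjusted p = 4.13e-10), and the others were not called. Tumor 7 was the highest tumor for Pdgfra, Dcn and Pdgfrb. The part of these cells in the values of Cxcl12 and Cxcl14 was not tested. Cxcl13, which draws B cells and follicular helper T cells through Cxcr5, lay between 0 and 169 CPM in tumors (median 1.18) and between 1.38 and 10.9 in normal kidneys (median 3.04). Tumors 7 and 9 (12.2 CPM) were above all normal kidneys and 5 tumors were below all of them. Here the log2 fold change of Cxcl13 did not pass the test and turned with tumor 7, from 2.19 ± 1.08 (SE, adjusted p = 0.0995) to -0.84 ± 0.70 (adjusted p = 0.333). Cxcl13 was called lower under limma-voom with all libraries (-2.21, adjusted p = 0.00346) and with tumors 7 and 9 and normal kidney 9 out (-1.72, adjusted p = 0.0182).

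For the CXC ligands that attract neutrophils and for Cxcl10, the promoters are shown because these genes are textbook targets of NF-kappaB and interferon factors and because the neutrophil ligands of 1 genomic cluster were highest in the same tumor. The 250 bases before each start are given as in RefSeq (GRCm38.p6), where 28 of the 35 members had an entry. Capitals mark matches to the kappaB consensus and, in Cxcl10, also the 1 match to the GAAA repeat of interferon-responsive promoters, searched on both strands. The promoters lie at chr5:90890995-90891244 (Cxcl1, plus strand), chr5:90903649-90903898 (Cxcl2, plus strand), chr5:90785851-90786100 (Cxcl3, plus strand) and chr5:92348890-92349139 (Cxcl10, minus strand).
Cxcl1: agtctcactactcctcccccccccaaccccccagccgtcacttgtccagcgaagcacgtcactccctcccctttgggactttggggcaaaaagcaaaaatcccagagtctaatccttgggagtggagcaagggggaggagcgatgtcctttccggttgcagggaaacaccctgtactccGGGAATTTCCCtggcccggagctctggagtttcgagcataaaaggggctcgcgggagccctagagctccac
Cxcl2: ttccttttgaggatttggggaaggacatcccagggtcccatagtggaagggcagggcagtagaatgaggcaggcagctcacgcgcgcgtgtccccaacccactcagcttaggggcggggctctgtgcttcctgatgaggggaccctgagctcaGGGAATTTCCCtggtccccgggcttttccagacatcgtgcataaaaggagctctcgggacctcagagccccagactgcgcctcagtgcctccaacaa
Cxcl3: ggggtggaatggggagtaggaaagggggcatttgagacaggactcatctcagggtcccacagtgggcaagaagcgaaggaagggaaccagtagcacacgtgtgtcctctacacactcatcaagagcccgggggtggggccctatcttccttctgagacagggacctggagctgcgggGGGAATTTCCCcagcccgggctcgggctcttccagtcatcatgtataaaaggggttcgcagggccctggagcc
Cxcl10: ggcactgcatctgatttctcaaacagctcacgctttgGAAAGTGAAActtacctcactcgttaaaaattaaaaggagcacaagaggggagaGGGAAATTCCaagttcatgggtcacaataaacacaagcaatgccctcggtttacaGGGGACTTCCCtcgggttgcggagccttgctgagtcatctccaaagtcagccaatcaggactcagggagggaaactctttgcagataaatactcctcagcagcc

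Cxcl1, Cxcl2 and Cxcl3 hold the same letters, GGGAATTTCC, at 71, 97 and 73 bases before the start, with a match on the opposite strand that overlaps it and is shifted by 1 base. Cxcl10 holds GGGAAATTCC at 159 bases and overlapping matches at 104 and 103 bases, the latter on both strands, and GAAAGTGAAA at 213 bases before its start. The kappaB consensus was found in 7 of the 28 members with a promoter entry (Ackr2, Ccl9, Ccr1, Cxcl1, Cxcl10, Cxcl2 and Cxcl3) and in 7.25% of all 32817 promoters, and the GAAA repeat (GAAA, any 2 bases, GAAA) in 2 members (Cxcl10 and Cxcl14) and 2.97% of promoters. ACGTG, the core of hypoxia response elements, was found in 3 members (Ackr4, Cxcl1 and Cxcl3) and 16.6% of promoters, and TGACNNNGC, the letters of the antioxidant response element, in 2 members (Cxcl10 and Cxcl13) and 10.2%. A match is a description of the letters and says nothing about binding.

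Cxcl2, a Cxcr2 ligand released by macrophages and neutrophils, lay between 0.474 and 248 CPM in tumors (median 1.32) and between 0 and 6.59 in normal kidneys (median 0.304). All 10 tumors were above the median of the normal kidneys, but only tumor 7, at 248 CPM, was above normal kidney 5 (6.59). It rose by a log2 fold change of 4.30 ± 1.33 (SE, adjusted p = 0.0111) with tumor 7, and had 0.25 ± 0.75 (adjusted p = 0.805) without it. Cxcl5, an ELR ligand of epithelial origin, lay between 0.301 and 15.5 CPM in tumors (median 0.682) and between 0.0599 and 1.59 in normal kidneys (median 0.365). Only tumor 7 was above all normal kidneys, and 9 of 10 tumors were above their median. Cxcl5 had a log2 fold change of 2.18 ± 0.71 (SE, adjusted p = 0.0147), and 0.66 ± 0.42 (adjusted p = 0.192) without tumor 7. Cxcl1, the keratinocyte-derived ELR ligand, lay between 3.06 and 15.7 CPM in tumors (median 6.20) and between 0.148 and 24.6 in normal kidneys (median 0.858). All 10 tumors were above the median of the normal kidneys, yet normal kidneys 5, 8 and 9 had the highest values of all, 24.6, 18.1 and 22.0 CPM. Normal kidneys 5, 7, 8 and 9 were also the highest normal kidneys for the neutrophil marker sum. Lcn2, which injured tubules also express, made up 2538, 3302, 1765 and 232 CPM of their sums of 2567, 3350, 1795 and 256. S100a9 was at 7.54, 9.24, 8.74 and 8.42 CPM in them and between 0.479 and 3.05 in the other normal kidneys. The log2 fold change of Cxcl1 was -0.11 ± 0.74 (SE, adjusted p = 0.915) with all libraries and -0.33 ± 0.76 (adjusted p = 0.738) without tumor 7. It turned to 0.98 (adjusted p = 0.326) without normal kidneys 5, 7 and 8 and to 0.22 without normal kidney 9. Cxcl1 passed the test under limma-voom with sample quality weights (3.34, adjusted p = 1.10e-06).

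Cxcl3, a further ELR ligand, did not pass the filter on low counts. It was at 149.8 CPM in tumor 7 and between 0 and 1.38 CPM in the other tumors, and between 0 and 1.21 in normal kidneys (median 0.0260). Cxcr2, the receptor of these ligands on neutrophils, was filtered too, with 16.8 CPM in tumor 7, between 0 and 1.99 CPM in the other tumors, and values between 0.0493 and 2.78 in normal kidneys (median 0.189). Tumor 7 thus held the highest value of the receptor and of 3 of its 4 ligands among all 20 libraries, and for Cxcl1 the highest among tumors. In the fit with no filter, which was not repeated without tumor 7, Cxcl3 was called higher and Cxcr2 was not called. No fold is given for them, since their means in tumors were set by that library. Among the neutrophil markers, 7 were tested, of which 2 were higher (1 without tumor 7) and 1 lower, Lcn2, which injured tubules also express.

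Of the interferon-induced ligands of Cxcr3, Cxcl10 rose and Cxcl9 did not pass the test. Cxcl10 (ENSMUSG00000034855, chr5:92346638-92348889, minus strand) lay between 1.84 and 21.9 CPM in tumors (median 10.9) and between 1.71 and 9.43 in normal kidneys (median 4.20). The groups overlapped, with 5 tumors above every normal kidney, 9 above their median, and tumor 7 the lowest tumor at 1.84 CPM. With all libraries its log2 fold change was 1.27 ± 0.38 (SE, adjusted p = 0.00878), and 1.39 ± 0.33 (adjusted p = 0.00151) without tumor 7. It shares 133 exon bases with Art3 on the opposite strand, a gene with a mean of 82.9 counts against 147 for Cxcl10 and a log2 fold change of -0.06 (adjusted p = 0.889). Cxcl9, which is induced by interferon gamma, lay between 0.166 and 3.06 CPM in tumors (median 1.01) and between 0.0365 and 4.43 in normal kidneys (median 1.28). Its groups overlapped over their whole range, and its log2 fold change was -0.33 ± 0.61 (SE, adjusted p = 0.681), and -0.32 ± 0.63 (adjusted p = 0.697) without tumor 7. Cxcr3, their receptor on activated T and NK cells, was at 0 in 2 tumors and 2 normal kidneys and reached 1.02 CPM in tumors and 1.70 in normal kidneys. With all libraries the log2 fold change of Cxcr3 was -1.01 ± 0.72 (SE, adjusted p = 0.260), and -1.25 ± 0.73 (adjusted p = 0.160) without tumor 7. It was called lower under limma-voom (-1.88, adjusted p = 0.0204) and without normal kidneys 5, 7 and 8 (-1.47, adjusted p = 0.0485).

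Of the CC ligands for monocytes, eosinophils and T cells, 8 were tested, with 5 higher and 0 lower with all libraries, and 0 higher and 0 lower without tumor 7. Of all genes tested, 23.6% were higher and 23.8% lower, and 23.6% and 27.1% without tumor 7. Ccl6, a myeloid ligand found in rodents that acts through Ccr1, lay between 4.90 and 686 CPM in tumors (median 18.5) and between 5.45 and 38.5 in normal kidneys (median 12.3). Tumor 7 had 686 CPM, tumor 9 followed with 86.2, and the other 8 tumors were within the range of the normal kidneys or just below it. The log2 fold change of Ccl6 was 2.45 ± 0.81 (SE, adjusted p = 0.0172), and 0.55 ± 0.48 (adjusted p = 0.356) without tumor 7, and with the replicate number as a block it was not called (0.69, adjusted p = 0.153). Ccl9, its neighbor and also a ligand of Ccr1, lay between 2.51 and 268 CPM in tumors (median 8.60) and between 2.10 and 25.3 in normal kidneys (median 5.42). Tumors 7 and 9 (268 and 63.8 CPM) were above all normal kidneys, and the others overlapped with them. Ccl9 had a log2 fold change of 2.26 ± 0.79 (SE, adjusted p = 0.0234), and 0.75 ± 0.56 (adjusted p = 0.272) without tumor 7.

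Ccl8, a monocyte attractant that in mice acts through Ccr8, lay between 0.590 and 62.1 CPM in tumors (median 5.03) and between 0.240 and 5.84 in normal kidneys (median 1.80). Tumors 3, 7 and 9 were above every normal kidney, at 6.06, 62.1 and 17.2 CPM, and 7 of 10 were above their median. Ccl8 had a log2 fold change of 2.40 ± 0.74 (SE, adjusted p = 0.0111), and 1.31 ± 0.58 (adjusted p = 0.0635) without tumor 7. Ccl11, or eotaxin, which draws eosinophils through Ccr3, lay between 0.214 and 32.3 CPM in tumors (median 0.941) and between 0.231 and 1.57 in normal kidneys (median 0.738). Tumors 3, 7 and 9 were above all normal kidneys and tumor 6 below all of them. For Ccl11 the log2 fold change of Ccl11 was 2.46 ± 0.79 (SE, adjusted p = 0.0139), and 0.57 ± 0.43 (adjusted p = 0.282) without tumor 7, and with the replicate number as a block it was not called (0.75, adjusted p = 0.305). Ccl7, a ligand of Ccr1 and Ccr2, lay between 0.562 and 20.2 CPM in tumors (median 0.891) and between 0.0599 and 2.14 in normal kidneys (median 0.485). Tumors 7, 8 and 9 were above all normal kidneys and all 10 were above their median. For Ccl7 the log2 fold change was 1.95 ± 0.70 (SE, adjusted p = 0.0277), and 0.60 ± 0.47 (adjusted p = 0.307) without tumor 7.

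The other tested inflammatory CC ligands did not pass the edgeR test with all libraries. Ccl2, the main monocyte attractant through Ccr2, lay between 2.05 and 34.9 CPM in tumors (median 3.79) and between 0.877 and 12.4 in normal kidneys (median 1.93). All 10 tumors were above the median of the normal kidneys, and normal kidney 9 (12.4 CPM) was above every tumor except tumor 7. With all libraries the log2 fold change of Ccl2 was 1.11 ± 0.59 (SE, adjusted p = 0.126), and 0.29 ± 0.47 (adjusted p = 0.627) without tumor 7. Without normal kidney 9 it passed the test at 1.64, and with all libraries it was also called higher under limma-voom (1.16, adjusted p = 0.00153) and with the replicate number as a block (1.06, adjusted p = 0.00438). For Ccl12, a mouse ligand of Ccr2, the log2 fold change of Ccl12 was 1.24 ± 0.60 (SE, adjusted p = 0.0972) and 0.28 ± 0.45 (adjusted p = 0.628) without tumor 7, and it passed at 1.59 without normal kidney 9. For Ccl5, made by T cells, the log2 fold change of Ccl5 was -0.54 ± 0.32 (SE, adjusted p = 0.179) and -0.51 ± 0.34 (adjusted p = 0.214) without tumor 7, with 8 of 10 tumors below the median of the normal kidneys, and it was called lower without normal kidneys 5, 7 and 8 (-0.82, adjusted p = 0.0381). Ccl3 and Ccl24 did not pass the filter. Ccl3, which neutrophils and macrophages release, was at 29.9 CPM in tumor 7 and between 0.0861 and 0.775 CPM in the other tumors. For Ccl24, which draws eosinophils, these values were 4.01 and between 0 and 2.12 CPM. Normal kidneys did not exceed 0.446 CPM of Ccl3 and 0.329 CPM of Ccl24. Both were called higher in the fit with no filter, which was not repeated without tumor 7, and no fold is given for either.

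Of the CC ligands of lymphoid and mucosal tissue only 3 were tested, and all 3 were lower in both fits, beside 23.8% of all genes tested with all libraries and 27.1% without tumor 7. Ccl28 (ENSMUSG00000074715, chr13:119623819-119654359, plus strand), a mucosal epithelial ligand of Ccr10 and Ccr3, lay between 0.211 and 7.47 CPM in tumors (median 2.35) and between 1.46 and 104 in normal kidneys (median 7.22). Normal kidneys 3, 4 and 6 had 22.2, 46.7 and 104 CPM and the other 7 at most 7.83, which is within reach of the highest tumor, tumor 8. Ccl28 had a log2 fold change of -3.11 ± 0.75 (SE, adjusted p = 0.00179), and -2.98 ± 0.75 (adjusted p = 0.00230) without tumor 7. With 1 library left out, the log2 fold change of Ccl28 lay between -3.48 and -2.29. Ccl27a (ENSMUSG00000073888, chr4:41769467-41774247, minus strand), an epithelial ligand of Ccr10, lay between 1.38 and 4.13 CPM in tumors (median 3.04) and between 2.39 and 21.0 in normal kidneys (median 6.24). Every tumor was below the median of the normal kidneys and 3 were below all of them, and normal kidney 9 was far above the rest at 21.0 CPM. Its log2 fold change was -1.31 ± 0.32 (SE, adjusted p = 0.00213), and -1.25 ± 0.33 (adjusted p = 0.00333) without tumor 7.

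Ccl27a has near-identical copies among unplaced scaffolds and shares 8 exon bases with Il11ra1 on the opposite strand, so its counts are uncertain. Il11ra1 had a mean of 916 counts against 96.0 for Ccl27a, and a log2 fold change of -1.26 (adjusted p = 0.000158). Ccl25 (ENSMUSG00000023235, chr8:4325210-4360020, plus strand), which draws thymocytes and gut lymphocytes through Ccr9, lay between 2.63 and 4.69 CPM in tumors (median 3.21) and between 4.73 and 6.85 in normal kidneys (median 5.37). Every tumor was below every normal kidney, within a narrow range in both groups. It fell by a small amount, with a log2 fold change of -0.64 ± 0.14 (SE, adjusted p = 0.000587), and -0.62 ± 0.14 (adjusted p = 0.000728) without tumor 7. Ccl25 shares 204 exon bases on the opposite strand with Elavl1, which had a mean of 794 counts against 88.0 for Ccl25 and a log2 fold change of -0.23 (adjusted p = 0.0431), so reads of the 2 genes may not be told apart there. Ccl21a, a ligand of Ccr7 made by lymphatic endothelium, is counted on a scaffold beside near-identical copies and was filtered. It had at most 3 counts in any tumor and up to 5.40 CPM in normal kidneys, the highest in normal kidney 9, and it was called lower in the fit with no filter. No fold is given.

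Among receptors for CC ligands, Ccr1, which is found on neutrophils, monocytes and macrophages, lay between 2.34 and 79.4 CPM in tumors (median 4.11) and between 0.978 and 10.2 in normal kidneys (median 1.94). All 10 tumors were above the median of the normal kidneys, and only tumor 7, at 79.4 CPM, was above normal kidney 7 (10.2). Ccr1 had a log2 fold change of 1.92 ± 0.66 (SE, adjusted p = 0.0219), and 0.61 ± 0.43 (adjusted p = 0.246) without tumor 7. Ccr2, the receptor of inflammatory monocytes, lay between 1.49 and 8.08 CPM in tumors (median 3.60) and between 3.69 and 15.4 in normal kidneys (median 6.34). It was the CC receptor that fell, at -0.80 ± 0.30 (SE, adjusted p = 0.0355), with 8 of 10 tumors below the median of the normal kidneys, and the call was lost in 9 of the 20 fits that leave out 1 library, with -0.75 ± 0.31 (adjusted p = 0.0505) without tumor 7.

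Cxcr4, the signaling receptor of Cxcl12 that is known to be induced by hypoxia-inducible factors, lay between 4.63 and 23.3 CPM in tumors (median 7.00) and between 2.99 and 9.47 in normal kidneys (median 4.70). The groups overlapped, with 3 tumors above all normal kidneys, and tumors 9 and 7 were the highest at 23.3 and 20.9 CPM. The log2 fold change of Cxcr4 was 0.88 ± 0.32 (SE, adjusted p = 0.0289), and the test was not passed without tumor 7 (0.68 ± 0.30, adjusted p = 0.0672), without tumor 9 (0.64, adjusted p = 0.0814), without normal kidney 3 (0.82, adjusted p = 0.0510) or without normal kidney 4 (0.83, adjusted p = 0.0520), nor with library totals (0.83, adjusted p = 0.0515), the upper quartile (0.79, adjusted p = 0.0516) or the replicate number as a block (0.72, adjusted p = 0.0761). Ackr3 (ENSMUSG00000044337, chr1:90203980-90216751, plus strand), the atypical receptor that binds and removes Cxcl12 and Cxcl11, lay between 69.9 and 205 CPM in tumors (median 103) and between 30.3 and 141 in normal kidneys (median 67.5). Every tumor was above the median of the normal kidneys and 2 were above all of them, and normal kidney 9 was the highest normal kidney. Ackr3 rose, and the log2 fold change of Ackr3 was 0.71 ± 0.24 (SE, adjusted p = 0.0176), and 0.77 ± 0.23 (adjusted p = 0.00980) without tumor 7, but did not pass without normal kidneys 5, 7 and 8 (0.45, adjusted p = 0.0754), which were the lowest 3 libraries for it at 30.3, 41.1 and 42.6 CPM. Thus the receptor genes of Cxcl12 were higher in tumors with all libraries and the ligand gene was lower.

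Of the other atypical receptors, for Ackr2, which clears inflammatory CC ligands, the log2 fold change of Ackr2 was 0.17 ± 0.33 (SE, adjusted p = 0.706) and -0.10 ± 0.30 (adjusted p = 0.807) without tumor 7. Under limma-voom it was called lower (-0.51, adjusted p = 0.0329), and no library exceeded 2.43 CPM. Ackr4, which clears Ccl19, Ccl21 and Ccl25, was filtered and reached 0.982 CPM in tumors and 1.20 in normal kidneys, and no fold is given. It shares 479 exon bases on the opposite strand with Acad11, whose mean of 3485 counts is far above the 10.9 of Ackr4 and whose log2 fold change was -1.02 (adjusted p = 0.000122), so its counts are uncertain.

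**Figure D4:**
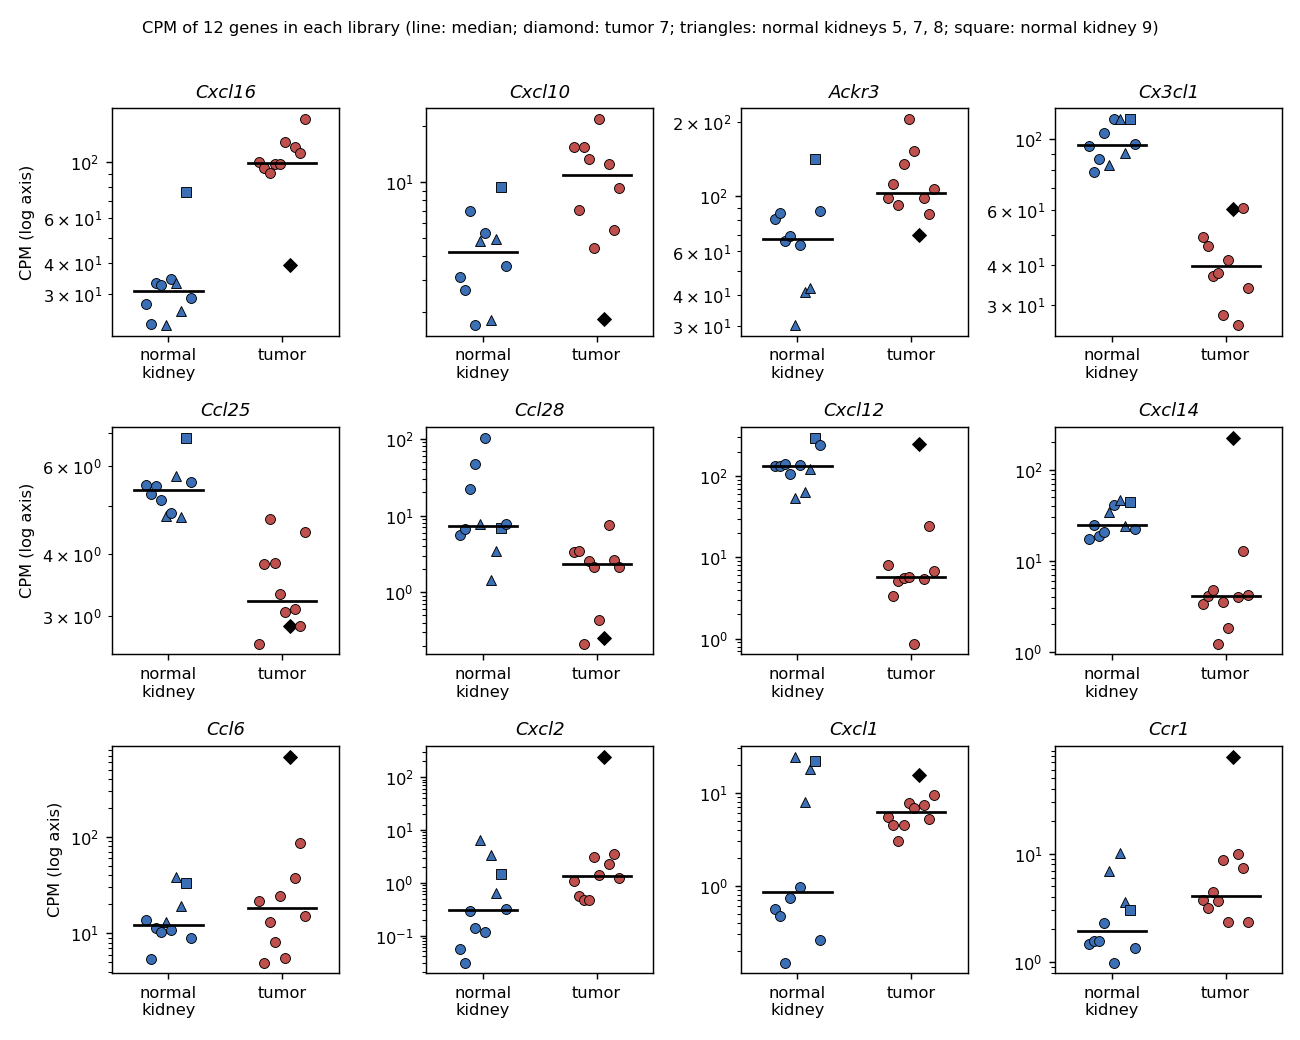
CPM on a log axis of 12 members in each normal kidney (left) and tumor (right), with lines at the medians, a diamond for tumor 7, triangles for normal kidneys 5, 7 and 8 and a square for normal kidney 9; values below 0.03 are drawn at 0.03. All tumors lie below all normal kidneys for Cx3cl1 and Ccl25, and tumor 7 lies apart from the other tumors for Cxcl12, Cxcl14, Ccl6, Cxcl2 and Ccr1.

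Levels were compared between genes as CPM per kilobase of exon. By the median of the tumors, the highest members were Cxcl16 (32.8), Ackr3 (30.7), Ccl6 (10.3), Cx3cl1 (10.1) and Ccl8 (9.85). Without tumor 7 the last 3 were ordered Cx3cl1 (9.65), Ccl8 (9.53) and Ccl6 (8.39). By the median of the normal kidneys, Cx3cl1 (24.5), Ackr3 (20.2), Cxcl12 (16.3), Cxcl14 (13.4) and Cxcl16 (10.2) stood for most of the message. The order by mean is led by Ccl6 in tumors (50.3 CPM per kilobase, drawn from tumor 7) and by Cx3cl1 in normal kidneys (25.0). The leading ligand gene by median thus was Cx3cl1 in normal kidneys and Cxcl16 in tumors, and Ackr3 was the leading receptor gene in both.

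Members also share positions. Of the 35, 10 lie on chromosome 11, 8 on chromosome 5 and 6 on chromosome 9 of the mm10 build, and 18 lie in 5 clusters whose neighboring genes are at most 200 kilobases apart. The cluster at chr11:82035571-82116799 holds Ccl2, Ccl7, Ccl11, Ccl12 and Ccl8, with a median log2 fold change of 1.95, and 0.57 without tumor 7. The cluster at chr11:83525778-83649355 holds Ccl5, Ccl9, Ccl6 and Ccl3, with a median of 2.26 over the 3 tested, and 0.55 without tumor 7. The cluster at chr5:90759360-90905938 holds Cxcl5, Cxcl3, Cxcl1 and Cxcl2, with a median of 2.18 over the 3 tested, and 0.25 without tumor 7. In each of these clusters, tumor 7 held the highest value of the tumors for all genes except Ccl5. Cxcl9 and Cxcl10 at chr5:92321347-92348889 had a median of 0.47, and 0.53 without tumor 7, and the receptors Cxcr6, Ccr1 and Ccr2 at chr9:123806475-124113557 had a median of -0.80, and -0.75 without tumor 7.

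Genes that act with chemokines were counted from lists. Of 13 chemokine-related genes outside the naming rule, 11 were tested, with 7 higher and 2 lower (5 and 2 without tumor 7). They include Mif, a ligand of Cxcr4 and Cxcr2 (log2 fold change 1.55, adjusted p = 7.91e-06), and its receptor chain Cd74 (1.35, adjusted p = 0.00456), with 1.60 and 1.43 (adjusted p = 3.90e-06 and 0.00231) without tumor 7. The platelet-type CXC ligands Pf4 and Ppbp were at 326 and 89.9 CPM in tumor 7 and at most 19.2 and 1.27 in the other tumors, and the sum of 5 platelet markers was 25.8 CPM (other tumors 1.81 to 4.71). The lower ones were Ccrl2 (-1.17, adjusted p = 0.00828), which presents chemerin, and Gpr182 (-1.61, adjusted p = 1.15e-05), an endothelial atypical receptor, with -1.55 and -1.74 (adjusted p = 9.73e-05 and 2.60e-06) without tumor 7. Of 32 genes of chemokine receptor signaling, 31 were tested, with 8 higher and 3 lower (7 and 4 without tumor 7). Of all genes tested, 23.6% were higher and 23.8% lower (23.6% and 27.1% without tumor 7). Gnai2, the inhibitory G protein most receptors use, rose by 1.12 (adjusted p = 2.03e-06), and Dpp4, a protease that trims chemokines, by 1.76 (adjusted p = 4.41e-05). Rgs2 and Grk3, which damp receptor signaling, had -2.33 and -2.58 (adjusted p = 1.76e-05 and 4.09e-07). Among other genes of these families, Grk2, Grk5 and Grk6 had 0.05, 0.36 and 0.16 and were not called. Rgs1, Rgs14, Rgs16 and Rgs19 had 1.53, -0.13, -0.02 and 0.18 and were not called either. Only Rgs14 of these was called without tumor 7 (-0.94, adjusted p = 0.0398). Without tumor 7 the values of Gnai2, Dpp4, Rgs2 and Grk3 were 1.09, 1.86, -2.71 and -2.73 (adjusted p = 3.71e-06, 2.66e-06, 1.92e-07 and 1.43e-07).

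Of 18 cytokines that induce chemokines, 7 were tested, with 3 higher (Tgfb1, Csf1 and Il4) and 1 lower (Ltb), and without tumor 7, 2 were higher and 2 lower. Of 16 NF-kappaB and interferon factors, all tested, 9 were higher and 1 lower in both fits, with a median log2 fold change of 0.53, and 0.53 without tumor 7. Irf7, an interferon-induced factor, rose by 3.04 (adjusted p = 1.54e-09), Stat2 by 1.21 (adjusted p = 7.73e-05) and the NF-kappaB feedback gene Tnfaip3 by 1.46 (adjusted p = 2.60e-07), and Irf8 of myeloid cells fell (-0.65, adjusted p = 0.0178). Without tumor 7 these 4 had 3.10, 1.28, 1.46 and -0.88 (adjusted p = 6.86e-10, 1.23e-05, 4.82e-07 and 0.000180). These counts stand beside the 23.6% higher and 23.8% lower among all genes tested.

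Marker lists of the cells that make or respond to chemokines gave these counts with all libraries, with those without tumor 7 in parentheses. Macrophage markers had 7 higher and 1 lower of 12 (4 and 2), with Cd68 at a log2 fold change of 3.48 (3.40 without tumor 7). T cell markers had 1 higher, Thy1, and 1 lower, Cd8a, of 5 tested (1 and 1), and no NK cell marker passed the filter. B and plasma cell markers had 0 higher and 5 lower of 5 (0 and 5), and dendritic cell markers 1 higher and 4 lower of 6 (1 and 4). The single tested mast cell and eosinophil marker, Kit, was not called (0 and 0 called without tumor 7), and the 2 tested platelet markers had 0 higher and 0 lower (0 and 1). Blood endothelium had 1 higher and 2 lower of 8 (1 and 3), and lymphatic endothelium 1 higher and 3 lower of 5 (1 and 3). Fibroblast and pericyte markers had 1 higher and 1 lower of 8 (1 and 3), adipocyte markers 0 and 0 of 4 (0 and 1), and tubule injury markers 2 higher and 3 lower of 9 (1 and 3). Whether these cells account for any chemokine value was not tested.

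Ligand and receptor genes known to pair were compared across the libraries of 1 group at a time, on log2 CPM, with two-sided permutation tests adjusted over the 19 of 34 listed pairs whose genes both reach a mean of 10 counts. Across the 10 tumors, 6 pairs had an adjusted p of Pearson's r under 0.05 (8 unadjusted), with a median r of 0.591 over the 19 and 12 above 0. Without tumor 7 the count was 0 (3 unadjusted), without tumor 1, 4 or 9 it was 4, and by Spearman's rho it was 1, Ccl7 with Ccr1. Ccl7 and Ccr1 had r = 0.944 (permutation p = 0.00161, adjusted p = 0.0153), rho = 0.867 (permutation p = 0.00231), and r = 0.754 without the 2 libraries farthest from the ligand's median. Ccl6 and Ccr1 had r = 0.920 and Ccl9 and Ccr1 had r = 0.870, and without tumor 7 the exact tests over 9 tumors gave r = 0.749 and 0.618 (adjusted p = 0.130 and 0.256).

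For Ccl3 and Ccr1 (r = 0.867, adjusted p = 0.0845) r was 0.204 without tumor 7, and Ccl5 and Ccr1 had r = -0.309 (adjusted p = 0.456). Cxcl2 and Cxcr2 had r = 0.852 across tumors, and 0.682 without tumor 7. Cxcl9 and Cxcr3 had r = 0.776 (permutation p = 0.00677, adjusted p = 0.0257), rho = 0.729 (permutation p = 0.0205), and r = 0.629 without the 2 libraries farthest from the ligand's median. For this pair r did not rest on tumor 7, since without it r was 0.821 (adjusted p = 0.121 by the exact test). Cxcl12 and Cxcr4 had r = 0.761 (permutation p = 0.0117, adjusted p = 0.0370), rho = 0.576 (permutation p = 0.0886), and r = 0.807 without the 2 libraries farthest from the ligand's median. Without tumor 7 alone, r of Cxcl12 and Cxcr4 was 0.623 (adjusted p = 0.377 by the exact test).

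Across the 10 normal kidneys, 3 pairs had an adjusted p under 0.05 (7 unadjusted), with a median r of 0.429 over the 19 and 13 above 0, and by rho 1 did. Cxcl9 and Cxcr3 had r = 0.907 (permutation p = 0.000550, adjusted p = 0.00522), rho = 0.930 (permutation p = 0.000310), and r = 0.896 without the 2 libraries farthest from the ligand's median. This pair was related in normal kidneys by both measures, and in both groups by r. Normal kidneys 5, 7 and 8 were the 3 lowest for both genes and for the T cell sum. Cxcl12 and Ackr3 had r = 0.893 (permutation p = 0.000400, adjusted p = 0.00522), rho = 0.782 (permutation p = 0.0105), and r = 0.709 without the 2 libraries farthest from the ligand's median. After adjustment its rho did not pass the test, and normal kidneys 5 and 7 were the lowest and normal kidney 9 the highest for both genes. In tumors the same pair had r = -0.666 (adjusted p = 0.105); the difference between the groups was not tested. Cxcl3 and Cxcr2 had r = 0.873 (adjusted p = 0.0172), and 0.531 without the 2 libraries farthest from the median, so it rests largely on normal kidneys 5 and 7. The count was 3 without normal kidney 9, 5 without normal kidney 5 and 2 without normal kidney 7 or 8. Cxcl16 with Cxcr6 and Cx3cl1 with Cx3cr1 had r = 0.127 and -0.182 in tumors and 0.429 and -0.142 in normal kidneys, and passed in neither group.

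**Figure D5:**
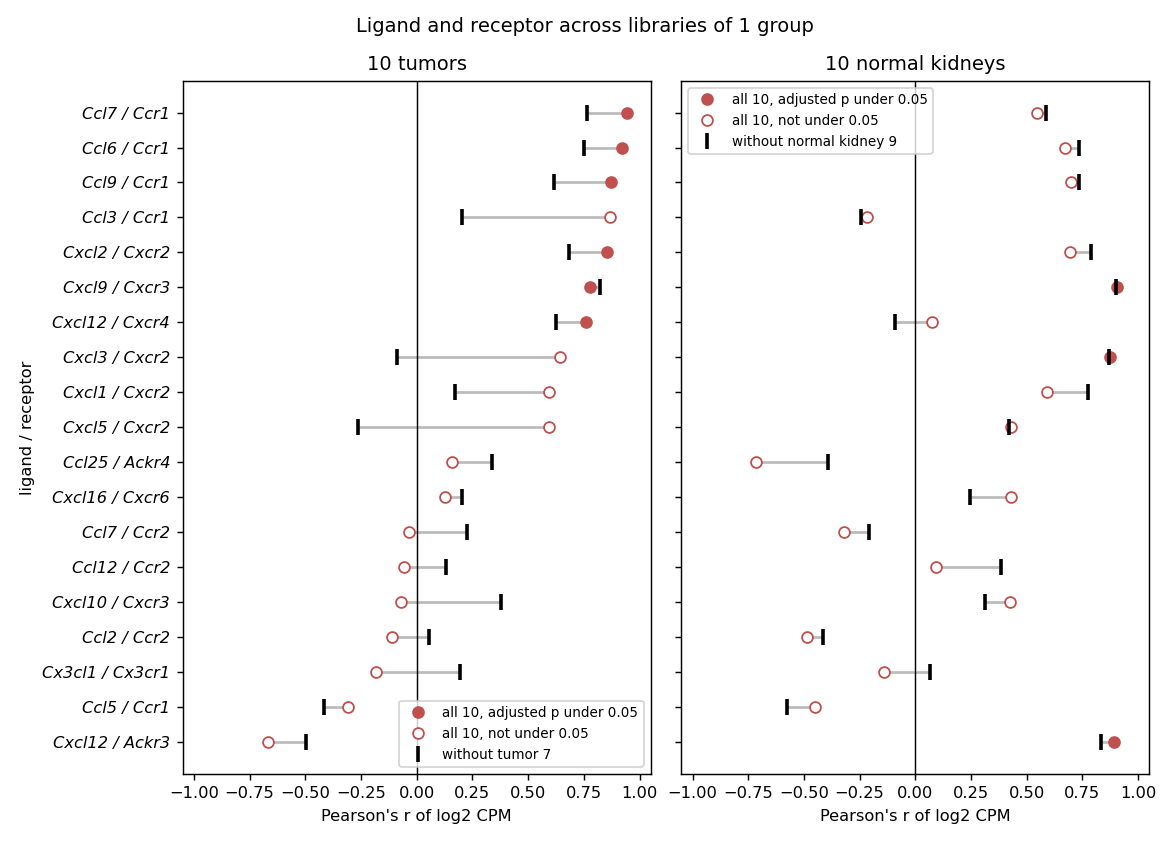
Pearson's r of log2 CPM for 19 ligand and receptor pairs across 10 tumors (left) and 10 normal kidneys (right), filled where the adjusted p was under 0.05, with ticks for r without tumor 7 or without normal kidney 9. In tumors 6 pairs are filled, led by Ccl7 and Ccr1 at 0.944.

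The other 29 members had a mean under 10 counts. They include Ccl17 and Ccl22 with their receptor Ccr4, Ccl20 with Ccr6, Ccr7 and its ligands Ccl19, Ccl21b and Ccl21c, the B cell receptor Cxcr5, Ccr3 of eosinophils, Ccr8, Ccr9, Ccr10, Cxcr1, Ackr1, Ccl4 and Cxcl17. At 0 in every library were Ccl26 and copies of Ccl21b, Ccl27a and Ccl19. Fitted with no filter, 2 of them were called higher in tumors (Cxcr1, at 0 in every normal kidney, and Ccr3) and 3 lower (Cxcl17, Ccl20 and Ccl17), from means of at most 9.40 counts. Of the 32383 genes in that fit, 4146 were called higher and 4929 lower. No fold is given for any of the 29.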

How the data were processed

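Gene counts were used as the authors deposited them, without normalization. Tumor and kidney tissue had been frozen and cryo-pulverized, RNA taken up in Trizol, and poly A enriched libraries read as pairs on an Illumina instrument by a sequencing company, which also made the counts. The submitters' processing notes name the mm10 build. The aligner, the counting tool and the use of strand are not given in the sources used here, so genes that share exon bases or have near-identical copies carry uncertain counts. Each library comes from a separate piece of tissue, with 10 mice behind each group.

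Counts were filtered by edgeR's filterByExpr with a count minimum of 10 and scaled by TMM factors. Groups were compared by edgeR 4.0.16 (glmQLFit and glmQLFTest, R 4.3.3) with no covariate. Log2 CPM of single libraries use a prior count of 2. Limma 3.58.1 and DESeq2 1.42.0 served as alternatives, and Python 3.11.15 with numpy 2.4.6, scipy 1.17.1 and matplotlib 3.10.9 for pairs, promoters and figures. The gene tests were tested on simulated data first, where 12.3% of the calls of DESeq2 and 3.18% of those of edgeR were false. Among 90 within-group pairs of libraries, chi-square divided by its degrees of freedom was at least 14.0, so no library appears to be deposited under 2 names. Permutation tests used 100000 resamples, and the exact tests over 9 libraries all 362880 orders.

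Named members are those with a mean of at least 10 counts, with other list genes beside them. Ranges of CPM are given for called members with a log2 fold change of at least 1 in size and for the 5 with the highest CPM per kilobase in either group, and those of further members were added after their values were seen. A gene that the naming rule covers is not reported here, and no count of members or pairs includes it. Members, marker lists and pairs were written by hand and chosen with earlier results of these data known. The tests and most alternatives were fixed before the count table was opened here, and those added later are named below.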

Additional observations from a re-analysis of the deposited data

Results flagged for a closer look

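In 76 groups of 10 values (each named member and each sum, in tumors or in normal kidneys), the highest or lowest library's gap to the nearest library was divided by the range of the group. This share was past Dixon's 95% limit for 10 values in 17 groups. Chance alone puts about 1 in 20 groups past it, and values of 1 library are not independent of each other.

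Of the 17, 12 were in tumor 7. It was the highest tumor for the share of counts on members (0.882), the ligand CPM sum (0.886), Cxcl2 (0.699), Ccl3 (0.695), Cxcl5 (0.633), Cxcl3 (0.631), Ccr1 (0.593), Ccl7 (0.567), Cxcl14 (0.556), Ccl2 (0.510) and Ccl11 (0.471). For Cxcl16 it was the lowest tumor (0.628). Tumor 5 was the lowest tumor for Ccl5 (0.606).

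Normal kidney 9 was the highest normal kidney for Cxcl16 (0.656), the ligand CPM sum (0.522) and Ccl25 (0.482), and normal kidney 7 for Cxcl3 (0.515). Without the normalization factor, the share of counts on members in normal kidney 9 was 0.0644%, against at most 0.0626% in the other normal kidneys, and with library totals 7 normal kidneys were above it for Ccl25. Marker sums of these libraries are given above, and the cause of their distance was not tested.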

How the results depend on the processing

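Of the 19 called members, 6 (Cx3cl1, Cxcl16, Ccl28, Cxcl10, Ccl27a and Ccl25) kept their call and direction under the 11 alternatives listed next and whichever 1 library was left out. Cxcl12 kept its call under the 11 and lost it without normal kidney 9, and Ackr3 kept it whichever library was left out and lost it without normal kidneys 5, 7 and 8. The alternatives were DESeq2 size factors, library totals, upper quartile, no filter, DESeq2, limma-voom with sample quality weights, the replicate number as a block, robust estimation and 3 sets of libraries left out. Over these 11 alternatives, the 29 tested members gave 319 log2 fold changes, of which 258 kept their direction and side of the threshold. In the same direction, 35 lost a call and 11 gained one, and 15 turned in direction. Among those that turned, Ccl9 and Cxcl2 also lost a call, and Cxcl13, Cxcl1 and Ackr2 were called in the new direction under at least 1 alternative. Robust estimation, the set of tumors 7 and 9 with normal kidney 9, the set of normal kidneys 5, 7 and 8, and the printing of values without tumor 7 were chosen after seeing the data.

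The count of 12 higher members was 5 with DESeq2, 4 without tumor 7 and normal kidney 9, and 3 without tumors 7 and 9 and normal kidney 9, while the 3631 higher genes of all became 3668, 4062 and 4107. It was 10 with limma-voom, beside 5337 higher genes, and lay between 3 (without tumor 7) and 14 (without normal kidney 9) with 1 library left out. The 7 lower members became 11 with limma-voom, where the lower genes of all 15354 went from 3661 to 5407, and lay between 5 and 7 with 1 library left out. With no filter 60 members were tested, with 17 higher and 9 lower, beside 4146 higher and 4929 lower of 32383 genes. DESeq2 ended the calls of Ccl6, Ccl9, Cxcl2, Ccr1, Ccl11, Ccl7 and Cxcl5. Its log2 fold changes for them, in that order, were 0.47, 0.65, 0.97, 0.55, 0.50, 0.53 and 0.61. In edgeR without tumor 7 they were 0.55, 0.75, 0.25, 0.61, 0.57, 0.60 and 0.66. At its default settings DESeq2 can replace outlying counts, so it is not sure to keep tumor 7 in full. Why the counts of called members and genes moved with the test was not tested.

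Library totals and the upper quartile both shifted the all-gene median (log2 fold change) from -0.02 to -0.14, and the 3631 higher and 3661 lower genes to 2850 and 4554 and to 3000 and 4650. No tested member turned in direction under them, and each gave 11 higher and 7 lower members.

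Some directions turned, and the cause was not tested. The log2 fold change of Cxcl13 (2.19 with all libraries) was -0.87 with DESeq2, -2.21 with limma-voom (adjusted p = 0.00346), -0.58 without tumor 7 and normal kidney 9, and -1.72 without tumors 7 and 9 and normal kidney 9 (adjusted p = 0.0182). With 1 library left out it lay between -0.84 and 2.50. With limma-voom the log2 fold change of Cxcl1 was 3.34 (adjusted p = 1.10e-06), and it was 0.0101 without tumors 7 and 9 and normal kidney 9 and 0.98 without normal kidneys 5, 7 and 8, and lay between -0.33 and 0.30 with 1 library left out. With limma-voom the log2 fold change of Ackr2 was -0.51 (adjusted p = 0.0329), and it was -0.23 without tumor 7 and normal kidney 9 and -0.39 with tumor 9 also out, and lay between -0.10 and 0.25 with 1 library left out. Without normal kidneys 5, 7 and 8 the log2 fold change of Cxcl14 was 0.0315, and it lay between -2.73 and 0.0248 with 1 library left out. Without tumors 7 and 9 and normal kidney 9 the log2 fold change of Ccl9 was -0.0284 and the log2 fold change of Cxcl2 was -0.0125. With 1 library left out, the log2 fold change of Cxcl9 lay between -0.61 and 0.0465.

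With the replicate number as a block (replicate block), 11 members were higher and 8 lower, beside 3979 higher and 3886 lower of all 15354 genes. It ended the calls of Ccl6 (log2 fold change of Ccl6 0.69, adjusted p = 0.153), Ccl11 (log2 fold change of Ccl11 0.75, adjusted p = 0.305) and Cxcr4 (log2 fold change of Cxcr4 0.72, adjusted p = 0.0761). Called in it were Cxcl14 (log2 fold change of Cxcl14 -2.45, adjusted p = 0.00185), Ccl2 (log2 fold change of Ccl2 1.06, adjusted p = 0.00438) and Cx3cr1 (log2 fold change of Cx3cr1 0.67, adjusted p = 0.0206). In this fit the log2 fold change of Cxcl13 was -1.26 and the log2 fold change of Cxcl1 was 1.61. Deviations of same-numbered tumors and normal kidneys from their group means correlated between 0.191 and 0.377 for 9 of 10 numbers and at -0.143 for number 9, and 8 of 10 tumors correlated best with the kidney of their own number. The labels do not say that a number marks a mouse, so the groups were not treated as paired. The p-values of the main fit thus treat tumor and normal kidney libraries from the same mice as independent.

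Of the 6 pairs related across tumors and the 3 across normal kidneys, Spearman's rho left 1 and 1. With 1 library left out the count lay between 0 (without tumor 7) and 6 in tumors and between 2 (without normal kidney 7 or 8) and 5 (without normal kidney 5) in normal kidneys. Library totals and a prior count of 0.5 kept both counts.

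Bulk counts do not say which cells hold a message, and message is not secreted protein. With 10 libraries in each group, 1 library such as tumor 7 can set a mean, and no untreated kidney is among them. Exon bases shared with genes on the opposite strand leave Ccl25, Ccl27a, Ackr4, Cxcl16 and Cxcl10 uncertain.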
